A study of Mus musculus with 6 samples.

Results

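Protamines, transition proteins and the linker histones of spermatids package the DNA of developing sperm. A set of 7 genes was followed in mouse testis cells, taken by gene name from the 54532 genes of the deposited expression table, and all 7 were present. They are the protamine genes Prm1, Prm2 and Prm3, the transition protein genes Tnp1 and Tnp2, and the linker histone genes Hils1 and H1fnt. All 7 passed the filter on low values, a mean of 1 FPKM or more, and entered the test. FPKM counts fragments per kilobase of a gene and per 1000000 by the authors' size factor. Levels of different genes can be compared by it only as far as the length used for each gene holds.

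The study sequenced total RNA from testis cell suspensions that the labels call STRA8+, in 3 conditional knockout libraries (cKO in the titles, genotype "knockout") and 3 control libraries (genotype "Cre"). STRA8 is a retinoic acid target of germ cells that are about to enter meiosis. The title names BCAS2 and hnRNPH1 and concerns splicing in meiotic prophase I, but the labels do not state which gene was deleted, whether the knockout animals carried Cre, which promoter drove it, or the strain and age of the mice. Nor do they say whether each library came from its own animal, so the p-values rest on variation among libraries that may be technical.

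After meiosis, haploid round spermatids elongate and exchange most of their histones, first for transition proteins and then for protamines. Protamines are short, arginine-rich proteins that neutralise the DNA backbone and are cross-linked through cysteines. Their mRNAs are made in round spermatids, stored, and translated days later. HILS1 and H1T2, the product of H1fnt, are testis-specific linker histones of haploid cells. Transcripts of these genes mark postmeiotic cells.

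The coding sequences show what these genes have in common and where they differ, and those of Prm1 and Tnp1 are shown because they are the most arginine-rich member and a typical transition protein. They were read from GENCODE M21 transcripts on GRCm38 (mm10), 5′ to 3′ without the stop codon, with arginine codons in capitals.
Prm1: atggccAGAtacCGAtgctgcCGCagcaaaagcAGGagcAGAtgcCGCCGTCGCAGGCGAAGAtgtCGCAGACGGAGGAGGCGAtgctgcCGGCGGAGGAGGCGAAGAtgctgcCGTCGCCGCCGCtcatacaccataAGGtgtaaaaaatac
Tnp1: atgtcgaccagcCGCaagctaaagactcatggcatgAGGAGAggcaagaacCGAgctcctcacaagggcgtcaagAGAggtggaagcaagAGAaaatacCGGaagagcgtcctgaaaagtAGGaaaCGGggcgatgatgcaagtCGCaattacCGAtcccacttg
Of 51 codons in Prm1, 28 encode arginine (54.9%) and 9 cysteine (17.6%), and none is acidic (0 of 51). Prm2 has 38 arginine codons of 107 (35.5%) and is the member richest in histidine, with 16 codons (15.0%). Tnp1 has 11 arginine and 10 lysine codons of 55 (20.0% and 18.2%) and 0 for cysteine. Tnp2 has 16 arginine and 11 lysine codons of 117 (13.7% and 9.40%). Prm3 stands apart: only 2 of its 101 codons encode arginine (1.98%) and 30 are acidic (29.7%), although it lies inside the protamine cluster. Hils1 (170 codons, 11.2% lysine and 7.06% arginine) and H1fnt (398 codons, 16.3% arginine) are longer and less basic per codon than Prm1.

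Prm1 and the other cluster genes lie in a row on the minus strand of chromosome 16. Coordinates are on mm10, which the submitters' processing notes name. The deposited table places Tnp2 (ENSMUSG00000043050) at 10787936 to 10788660, Prm3 (ENSMUSG00000050058) at 10790505 to 10790914, Prm2 (ENSMUSG00000038015) at 10791380 to 10796134 and Prm1 (ENSMUSG00000022501) at 10796326 to 10805839. Tnp1 (ENSMUSG00000026182) is on chromosome 1 at 73015074 to 73015909, Hils1 (ENSMUSG00000038994) on chromosome 11 at 94967593 to 94968456, and H1fnt (ENSMUSG00000048077) on chromosome 15 at 98255986 to 98257293. All are annotated as protein-coding, with 1 exon in the main transcript of Prm3, Hils1 and H1fnt and 2 exons in that of the others. The bases just before the start are shown for the 5 protamine and transition protein genes. Hils1 and H1fnt fell as well, and their windows were searched but are not shown. The bases shown come from RefSeq on GRCm38.p6, on the coding strand (minus for all 5), with matches to TGANGTCA, TATA and TATAAA in capitals. In Prm1 the match to TGANGTCA is on the opposite strand and reads TGACTTCA here. In Prm2 a TATAAA on the opposite strand overlaps TATA. The RefSeq starts of Prm1, Prm2, Tnp1 and Tnp2 lie inside the wider gene spans of the deposited table.
Prm1 (chr16:10796824-10796943): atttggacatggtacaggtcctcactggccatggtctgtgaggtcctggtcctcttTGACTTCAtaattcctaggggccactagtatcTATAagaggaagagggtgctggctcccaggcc
Prm2 (chr16:10792106-10792225): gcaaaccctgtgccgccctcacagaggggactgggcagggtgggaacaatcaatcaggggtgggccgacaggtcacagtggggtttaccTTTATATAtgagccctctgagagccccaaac
Prm3 (chr16:10790915-10791034): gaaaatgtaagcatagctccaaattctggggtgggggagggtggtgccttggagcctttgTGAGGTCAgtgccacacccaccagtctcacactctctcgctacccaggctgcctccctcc
Tnp1 (chr1:73015900-73016019): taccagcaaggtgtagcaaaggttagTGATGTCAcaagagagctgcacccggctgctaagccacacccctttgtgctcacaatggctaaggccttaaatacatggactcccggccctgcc
Tnp2 (chr16:10788656-10788775): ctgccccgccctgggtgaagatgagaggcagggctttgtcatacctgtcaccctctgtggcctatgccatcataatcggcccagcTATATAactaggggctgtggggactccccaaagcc
The letters searched, on both strands of the 250 bases before the start, were TGACGTCA (the palindromic cAMP response element, bound by CREM), its core TGACG, the TATA box as TATAAA, and the CCAAT box. TGACGTCA was in none of the 7 windows (0) and in 1.55% of all 32851 RefSeq windows. TGACG was in that of H1fnt alone (17.8% of all windows), TATAAA in that of Prm2 alone (12.4%), and CCAAT in those of Prm3 and Hils1 (33.8%). A pair of looser motifs was added after these sequences were seen. TGANGTCA, which includes TGACGTCA, was in the windows of Prm1, Prm3 and Tnp1 and in 7.49% of all windows, and TATA, which overlaps TATAAA, was in those of Prm1, Prm2, Tnp2, Hils1 and H1fnt and in 34.0% of all. In Prm1, Prm2 and Tnp2 the TATA match began 32, 29 and 35 bases before the start, and in Hils1 and H1fnt the first match began farther away, at 184 and 240 bases.

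The library depth was 14770320 to 15204127 reads in the knockout and 14532453 to 16963019 in the controls, as recovered from the deposited values. Of 16791 genes tested with limma, 86.6% were called in the knockout, 36.2% as higher and 50.4% as lower, with an adjusted p under 0.05, and 41.1% were called lower with a log2 change at or below -1. After rescaling FPKM in each library to a sum of 1000000, 9109 genes were called higher and 6084 lower, where the values as deposited gave 6075 and 8462. Markers of the labelled cells rose in 7 of 8 cases, with Rec8 lower, and their summed level was 411.2 to 449.9 FPKM in the knockout and 88.9 to 117.5 FPKM in the controls. Sertoli cell markers rose in 10 of 10 cases, at a summed level of 340.6 to 562.2 FPKM in the knockout and 86.6 to 151.7 FPKM in the controls. Round and elongating spermatid markers were lower in 10 of 10 and 12 of 12 cases. The round spermatid list summed to 4.14 to 6.46 FPKM in the knockout and 1561 to 1998 FPKM in the controls, and the elongating list to 36.5 to 41.8 FPKM and 7482 to 8871 FPKM in the same order. Pachytene spermatocyte markers were lower in 10 of 10 cases, at 48.8 to 66.2 FPKM in the knockout and 5147 to 6190 FPKM in the controls. For other cells the counts depended on the scaling. Over all genes tested, 8491 to 9109 were called higher and 6084 to 6527 lower under 3 other scalings. Macrophage markers rose in 3 of 8 cases on the deposited scale and in 7 or 8 of 8 under 3 other scalings, and their summed level was 289.5, 91.3 and 110.6 FPKM in the knockout, with replicate 1 standing apart, and 56.6 to 97.7 FPKM in the controls. Leydig cell markers rose in 1 and fell in 3 of 6 tested, with 1 or 2 lower under the other scalings, and erythroid markers fell in 1 of 3, with 0 lower under the others. Retinas are named in the extraction protocol of the labels, which otherwise name testis; 1 of 10 photoreceptor markers passed the filter, which was called higher under the 3 other scalings but not as deposited, and the 10 summed to 1.93 to 2.48 FPKM in the knockout and 2.48 to 3.11 FPKM in the controls. No marker of either spermatid list had 0 reads over the 3 knockout libraries. In these bulk samples, fewer spermatids and less RNA per spermatid cannot be told apart, and the part of the cell mix in the results below was not tested.

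Transcripts of all 7 genes were nearly gone from the knockout. Together they took 18, 60 and 17 reads in the knockout libraries, or 1.18, 4.06 and 1.15 per 1000000 reads, against 104930, 119860 and 129080 reads in the controls, or 7220, 7066 and 7866 per 1000000. Their share of all reads was 0.000213 ± 0.000167% in the knockout and 0.738 ± 0.0424% in the controls (SD, n = 3 each), and the groups did not overlap. An exact two-sided permutation test over libraries gave p = 0.10, the smallest that 3 against 3 allows. By limma, 7 of 7 genes were lower, where 50.4% of all genes tested were, and in each of the 7 every knockout library lay below every control library, as it did for 51.1% of all genes tested. Their median log2 fold change was -10.28, against -0.41 over all genes tested. On the deposited scale 322 of the 16791 genes fell as far as Prm3, the member that fell least, whose value is limited by the added 0.5 FPKM; 192 did after rescaling FPKM to a sum of 1000000.

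**Figure D1:**
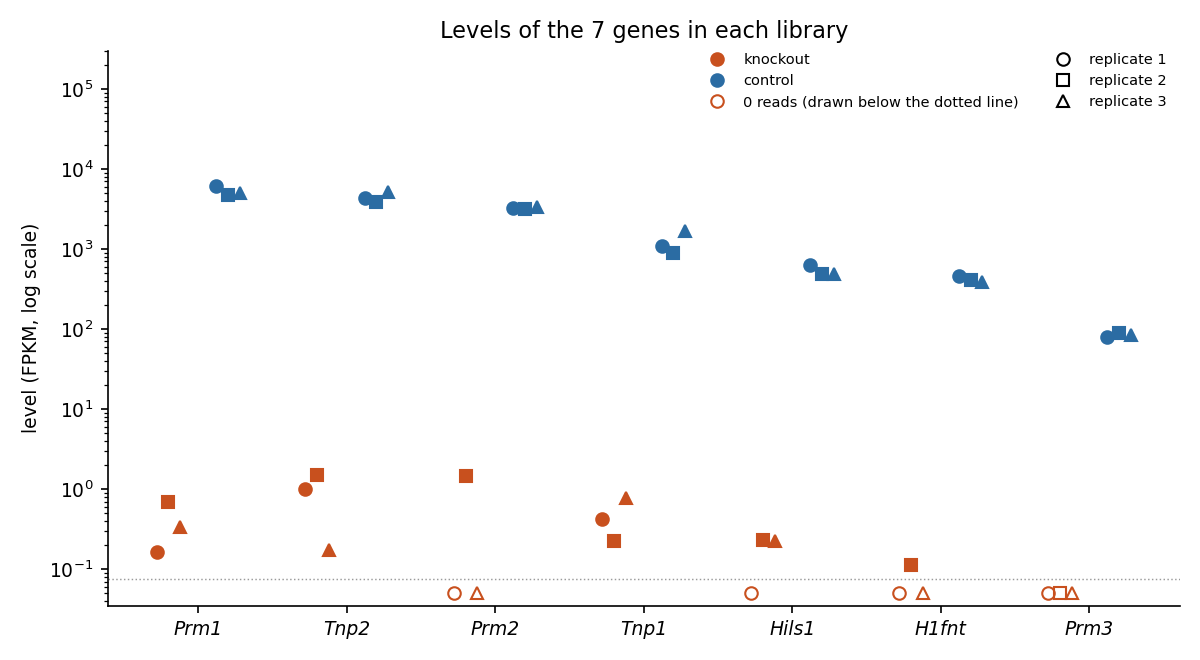
Level of each gene in each library in FPKM on a log axis, knockout libraries left of the controls, with replicates told apart by marker shape; open markers under the dotted line had 0 reads and no value on the log axis. Every control value is at or above 79.7 FPKM and every knockout value is at or below 1.52 FPKM.

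Prm1, the main arginine-rich protamine, was at 0.162, 0.692 and 0.338 FPKM in the knockout, against 6089, 4793 and 4999 FPKM in the controls. The knockout values stand for 2, 8 and 4 reads, with exact 95% Poisson intervals of 0.242 to 7.22, 3.45 to 15.8 and 1.09 to 10.2 reads, against 34900 to 35951 reads per control library. By FPKM, Prm1 was the second most abundant of the genes tested in the controls and rank 13395 in the knockout. Its log2 fold change of -12.56 ± 0.208 (SE, limma adjusted p of 1.6e-09) was the largest fall of all genes tested on the deposited scale. Scaled to the deposited divisors, reads were 13352 times fewer in the knockout, with an exact 95% interval of 7958 to 24423. Such intervals hold the counting error and leave out the spread between libraries, and reads without molecular identifiers are not independent molecules.

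Prm2, whose protein is made as a precursor and trimmed on the DNA, was at 0, 1.44 and 0 FPKM in the knockout, against 3295, 3173 and 3392 FPKM in the controls. All 26 knockout reads came from replicate 2, and replicates 1 and 3 had 0, which allows up to 3 reads in each, or 0.155 and 0.162 FPKM. Its log2 fold change was -12.03 ± 0.479 (limma adjusted p of 1.1e-07), with the largest standard error of the 7 genes. The scaled read ratio was 7066 (4822 to 10818). Without knockout replicate 2 the ratio was 41443, with the 0 reads of both remaining libraries together set to the floor of 3. For Prm1 the ratio was 21083 without that library.

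Prm3, which encodes a small acidic protein, had 0 reads in each of the 3 knockout libraries. The controls had 79.7, 90.4 and 84.1 FPKM, or 328, 487 and 425 reads, so it was by far the least abundant of the 7 genes. A count of 0 allows up to 3 reads, which is 0.338, 0.362 and 0.353 FPKM in the knockout libraries. With the floor of 3 reads set over the group, its level was 728.8-fold lower in the knockout. Its fitted log2 fold change of -7.41 ± 0.102 (limma adjusted p of 1e-09) is the most that the log2(FPKM + 0.5) scale allows for a gene of this level, and is no bound.

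Tnp2, a transition protein of condensing nuclei, was at 1.00, 1.52 and 0.174 FPKM in the knockout, against 4289, 3917 and 5190 FPKM in the controls. Its 12, 17 and 2 reads made it the member with the most reads in the knockout, 31 in all, against 23850 to 35422 per control library. The log2 fold change was -11.77 ± 0.361 (limma adjusted p of 2.5e-08) and the scaled read ratio 4993 (3517 to 7348). Tnp1, the other transition protein, had 0.423, 0.226 and 0.774 FPKM in the knockout and 1080, 898.8 and 1697 FPKM in the controls. These knockout levels rest on 4, 2 and 7 reads, and here replicate 3, not replicate 2, was highest. The log2 fold change was -10.28 ± 0.272 (limma adjusted p of 1.1e-08), and the scaled read ratio of 2582 (1509 to 4850) was the lowest among the 6 members with any knockout reads.

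Hils1, the spermatid linker histone, was at 0, 0.229 and 0.224 FPKM in the knockout (0, 4 and 4 reads), against 626.9, 484.0 and 494.0 FPKM in the controls. Its log2 fold change was -9.70 ± 0.175 (limma adjusted p of 1.9e-09) and its scaled read ratio 3568 (1810 to 8266). H1fnt, listed as H1f7 in RefSeq, had 0, 0.113 and 0 FPKM in the knockout and 464.8, 407.1 and 391.7 FPKM in the controls. Its 3 knockout reads were all in replicate 2. The log2 fold change was -9.62 ± 0.121 (limma adjusted p of 9.8e-10), close to the -9.72 that the scale allows, and the ratio of 11408 had a wide counting interval of 3903 to 55326.

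Ordered from the largest fall among all genes tested, Prm1, Prm2 and Tnp2 ranked 1, 2 and 3, Tnp1 9, Hils1 24, H1fnt 26 and Prm3 322. This order is that of their control levels except that Prm2 and Tnp2 change places, and the added 0.5 FPKM limits how far a gene can fall on this scale. In scaled reads, which carry no such addition, the interval for Prm1 (7958 to 24423) lay above those for Tnp1 and Tnp2, which ended at 4850 and 7348, and overlapped those for Prm2, Hils1 and H1fnt. With Prm3 at the floor, the median log2 ratio of scaled reads over the 7 genes was -12.29. By library totals in place of the deposited divisors, the ratios ranged from 386.4 for Prm3, at the floor of 3 reads, to 7079 for Prm1.

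**Figure D2:**
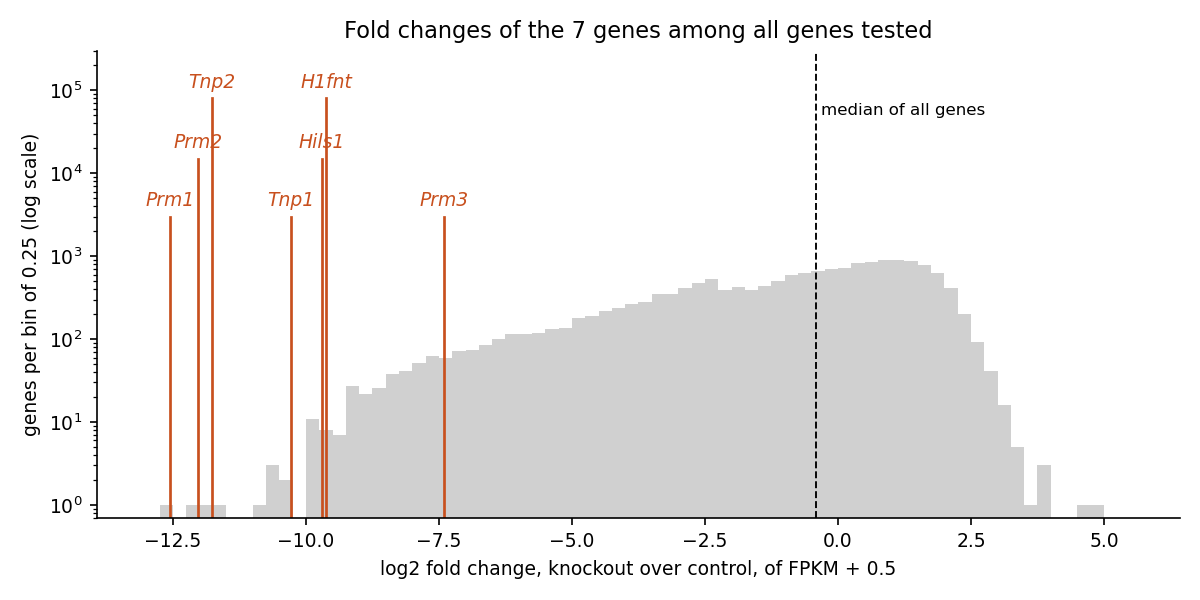
Number of genes (log axis) by log2 fold change, knockout over control, of FPKM + 0.5 in bins of 0.25, for the 16791 genes tested, with a line for each of the 7 genes and a dashed line at the median of all genes. The members lie between -12.56 and -7.41, in the far left tail, and the median is -0.41.

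The few knockout reads were not spread evenly over the libraries. Replicate 2 held 60 of the 95 (63.2%), 26 of them from Prm2 alone. It was the highest knockout library for Prm1, Prm2, Tnp2 and H1fnt, while Tnp1 was highest in replicate 3. Hils1 had 4 reads in each of replicates 2 and 3. Tnp2 made up 32.6% of the pooled knockout reads of the set and 24.8% of the control reads, Prm1 14.7% and 30%, and Tnp1 13.7% and 5.38%, in the same order. The 5 protein-coding genes most like the mean profile of the 7 were Gsg1, Akap4, Pgk2, Spz1 and Odf1, with root mean square differences of 0.0995, 0.120, 0.159, 0.170 and 0.227 on the log2 scale over the 6 libraries, each profile being centred on its mean. Akap4 encodes a protein of the fibrous sheath of the sperm tail, Odf1 one of the outer dense fibers and Pgk2 a glycolytic kinase of late germ cells. These genes had 9, 56 and 11 reads in the knockout libraries and 98954 to 105950 reads in the controls; they were chosen on the same 6 libraries, so their high value in replicate 2 follows from the choice. Sums over lists not chosen that way differed less between the knockout libraries: replicates 1, 2 and 3 had 10.8, 12.7 and 9.59 per 1000000 reads for round spermatid markers, 365, 389.8 and 372.9 for elongating spermatid markers, and 226.5, 256 and 208.8 for pachytene markers. Hook1 and Odf2 gave most of the elongating reads, and Hspa2 and Mns1 most of the pachytene reads, so these sums say little of near-absent markers. Among those, Smcp had 0, 17 and 0 reads in knockout replicates 1, 2 and 3 and Spaca7 0, 6 and 0, while Catsper3 had 3, 1 and 1. The members themselves differed from their mean profile by 0.440 for Hils1 to 1.55 for Prm3.

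In the controls the order of levels was Prm1, Tnp2, Prm2, Tnp1, Hils1, H1fnt and Prm3, at means of 5293, 4465, 3287, 1225, 535.0, 421.2 and 84.7 FPKM. Prm1 (4793 to 6089 FPKM) and Tnp2 (3917 to 5190 FPKM) overlapped, and no other neighbours in that order did. Within a library, Prm1 was 1.61 ± 0.206 times as abundant as Prm2 and Tnp2 was 3.80 ± 0.667 times as abundant as Tnp1 (SD, n = 3 controls). Hils1 was 1.27 ± 0.0800 times as abundant as H1fnt. Prm2 exceeded Prm3, its neighbour in the cluster, 38.9 ± 3.35 times. The deposited length exceeded that of the main transcript for Prm1 (571 and 469 bases) and Prm2 (894 and 621 bases). For the other members the lengths were equal. The places of Prm1 and Prm2 in this order, and their ratios, therefore depend on the length used. In reads over the 3 controls, Prm1 had 106017 and Prm2 104200.

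Tnp1 was the least even of the 7 among the control libraries. Its coefficient of variation of 34.2% was reached or passed by only 7 of 911 genes with a control mean of at least 100 FPKM, Tnp1 itself included. The median over the 911 was 10.6%. Control replicate 3 had 1697 FPKM, 1.89 times the lowest control, and Tnp2 was highest there too at 5190 FPKM. Prm1, Hils1 and H1fnt were instead highest in control replicate 1. Prm2 was the most even, at 3.34%, with Prm3 at 6.36%, H1fnt at 9.15%, Prm1 at 13.2%, Tnp2 at 14.7% and Hils1 at 14.9%.

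**Figure D3:**
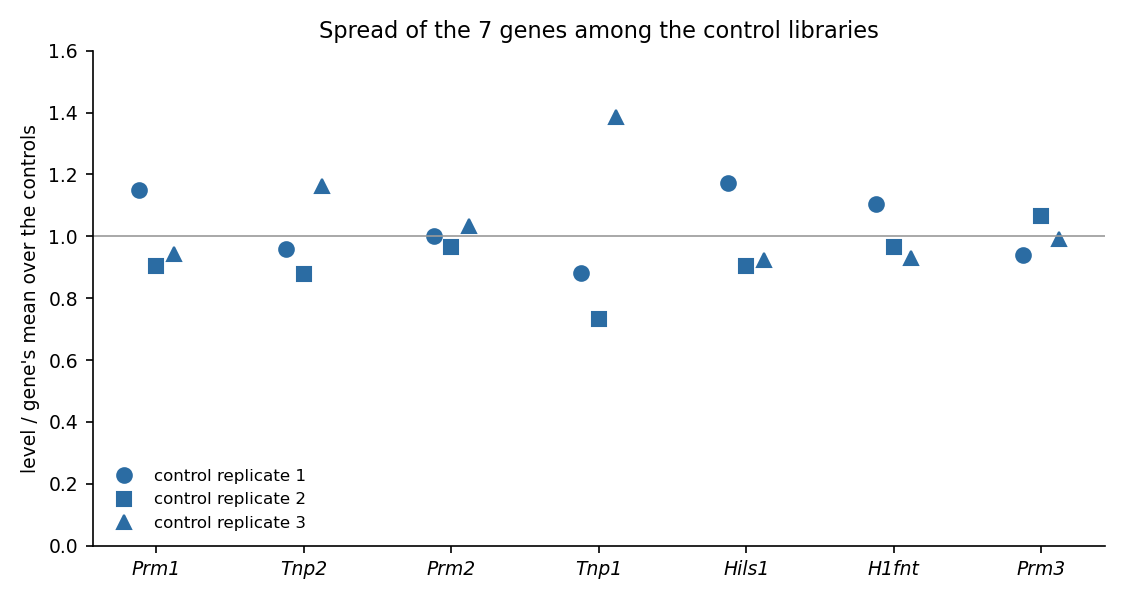
Level of each gene in each control library divided by the gene's mean over the 3 controls, with marker shapes for the replicates. Tnp1 has the widest spread, with control replicate 3 highest, and Prm2 the narrowest.

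Some members share their place with other annotated genes, and the sources used here do not say whether counting used strand, so reads of such pairs cannot be told apart. The antisense gene 1700027A15Rik, which spans Tnp1, had 0, 0 and 0.0346 FPKM in the knockout and 111.9, 100.7 and 134.4 FPKM in the controls. It was highest in control replicate 3, as Tnp1 was. Sgca, which encodes a muscle sarcoglycan and holds Hils1 on its opposite strand, had 0.320, 0.171 and 0.139 FPKM in the knockout and 14.7, 5.92 and 6.36 FPKM in the controls, with control replicate 1 highest as for Hils1. Inside or across the Prm1 span lie, on its opposite strand, CT010583.1 (5, 1 and 4 reads in the knockout, 62 to 64 per control library) and the pseudogene Gm10343 (9, 4 and 15 reads in the knockout, 54 to 88 per control library). Each of these 4 genes was lower in the knockout by limma.

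The few protein-coding genes tested next to the protamine cluster did not all fall with it. Of 4 protein-coding genes tested within 200 kb on chromosome 16, 3 rose and 1 fell. Of all genes tested, 36.2% were called higher and 50.4% lower, and 4 genes are too few to set apart from these shares. Socs1, a suppressor of cytokine signalling that lies just beyond Tnp2, rose to 5.18 ± 0.407 FPKM in the knockout, against 1.94 ± 0.397 FPKM in the controls (SD, n = 3 each; log2 fold change 1.23 ± 0.151, limma adjusted p of 0.0001). Rmi2, of the BLM helicase complex, had 2.07 ± 0.256 FPKM in the knockout and 0.821 ± 0.0732 FPKM in the controls, and Litaf, an endosomal protein, 8.64 ± 0.994 and 2.28 ± 0.807 FPKM in the same order (limma adjusted p of 0.0005 and 0.00015). Clec16a, a regulator of mitophagy, fell to 4.86 ± 0.759 FPKM in the knockout, against 12.8 ± 1.10 FPKM in the controls, a log2 fold change of -1.32 that was -0.21 and no longer called with FPKM rescaled to sum to 1000000. The 4 cluster genes had log2 fold changes of -12.56 to -7.41.

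**Figure D4:**
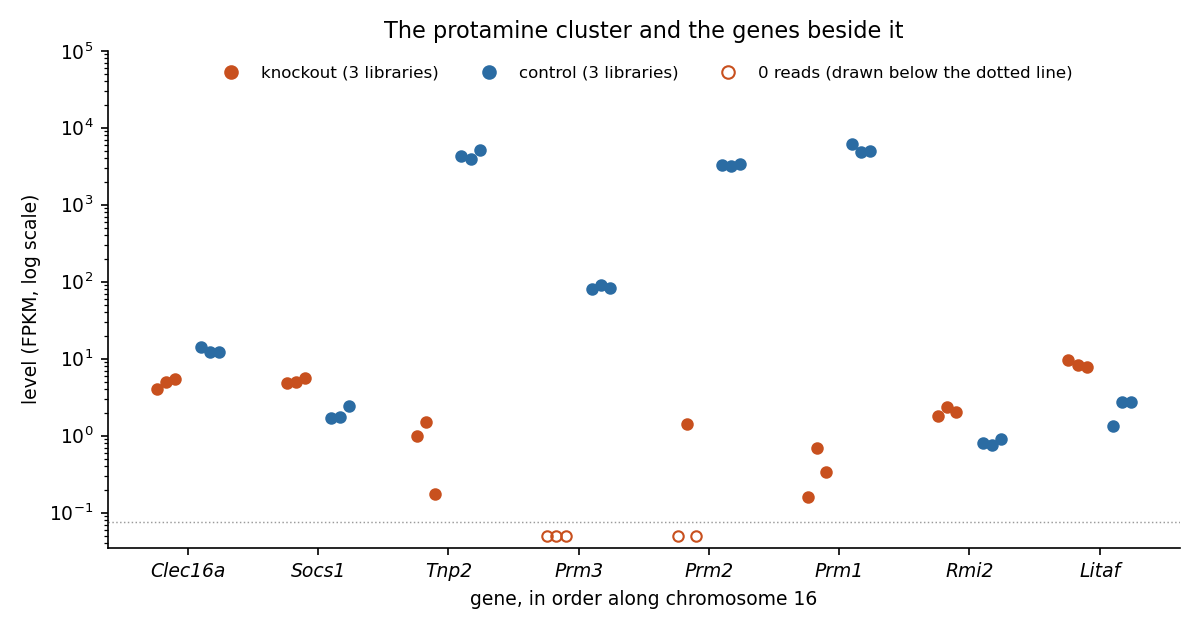
Level in FPKM on a log axis in each knockout library and each control library, for the protein-coding genes tested within 200 kb of the cluster, in their order along chromosome 16; open markers had 0 reads. Tnp2, Prm3, Prm2 and Prm1 are low in the knockout while Socs1, Rmi2 and Litaf are higher there than in the controls.

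Regulators of haploid transcription were mostly lower in the knockout. Of 12 genes in this list, all tested, 10 fell and 2 rose, where 50.4% of all genes tested were called lower and 36.2% higher. The median log2 fold change was -3.73 (-0.41 over all genes tested). Under each of 3 other scalings 9 fell, where 36.2% to 38.9% of all genes tested were called lower. Fhl5, the testis coactivator of CREM, had 0, 0.211 and 0.0825 FPKM in the knockout and 257.5, 220.2 and 206.4 FPKM in the controls (log2 fold change -8.59 ± 0.152, limma adjusted p of 1.9e-09). Gtf2a1l, a germ cell form of TFIIA, fell to 0.462 ± 0.0692 FPKM, against 294.1 ± 35.1 FPKM in the controls. Sox30 and Rfx2, transcription factors of late meiotic and haploid genes, had 4.93 ± 0.461 and 3.14 ± 0.541 FPKM in the knockout and 85.4 ± 5.84 and 90.3 ± 10.3 FPKM in the controls. Crem itself, also chosen with its value in view, had 2.50 ± 0.609 FPKM in the knockout and 62.3 ± 8.93 FPKM in the controls, a log2 fold change of -4.40 ± 0.166. The genes that rose were Taf7l, a germ cell subunit of TFIID, at 194.6 ± 12.5 FPKM in the knockout and 39.6 ± 6.65 FPKM in the controls, and Brwd1, a bromodomain protein, at 10.4 ± 0.817 and 5.68 ± 0.169 FPKM in the same order; this pair was chosen with their values in view.

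Genes of histone replacement were divided, as were all genes tested. Of 30 listed, 27 were tested, 18 fell, 8 rose and 1 was not called, with a median log2 fold change of -1.16. Of all genes tested, 50.4% were called lower and 36.2% higher, with a median of -0.41. With FPKM rescaled to sum to 1000000, 13 fell and 12 rose, so the balance of this list depends on the scaling. On that scale 36.2% of all genes tested were called lower. H2al2a, a short H2A variant that opens nucleosomes to transition proteins, had 0 reads in each knockout library and 366.3, 269.9 and 280.6 FPKM in the controls. Ccer1, a factor of the histone-to-protamine exchange, had 0.317 ± 0.0562 FPKM in the knockout and 179.5 ± 3.42 FPKM in the controls. Klhl10, a partner of the CUL3 ubiquitin ligase in spermatids, had 0.785 ± 0.211 and 244.4 ± 24.2 FPKM in the same order, and Phf7, a ubiquitin ligase for histones, 13.5 ± 1.95 and 679.6 ± 74.4 FPKM. The limma adjusted p was 1e-09 for H2al2a, 9.4e-10 for Ccer1, 2e-09 for Klhl10 and 5.2e-09 for Phf7. The 8 that rose were Huwe1, Top2b, Parp1, Parp2, Parg, Sirt1, Rnf8 and Setd2, listed with their values in view, with log2 fold changes of 0.48 for Setd2 to 1.86 for Huwe1; they are enzymes that most cells use.

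In the list for storage and translation of protamine mRNA and modification of the protein, 12 of 13 genes fell and 1 rose, as under each of 3 other scalings, with a median log2 fold change of -2.59. Of all genes tested, 50.4% were called lower on the deposited scale, with a median of -0.41, and 36.2% to 38.9% under the other scalings. Ybx3, a Y-box protein that binds stored mRNA, had 13.9 ± 1.17 FPKM in the knockout and 860.2 ± 63.7 FPKM in the controls. Papolb, a cytoplasmic poly(A) polymerase of germ cells, had 2.28 ± 0.367 and 338.7 ± 57.7 FPKM in the same order, and Piwil1, the PIWI protein of the chromatoid body, 2.94 ± 0.545 and 134.0 ± 12.1 FPKM. Kif17, a kinesin that carries the CREM coactivator, had 1.92 ± 0.0842 FPKM in the knockout and 107.9 ± 5.44 FPKM in the controls. The limma adjusted p was 1.6e-09 for Ybx3, 4e-09 for Papolb, 1e-08 for Piwil1 and 1.5e-09 for Kif17. The gene that rose was Celf1, an RNA-binding regulator of splicing and decay, at 30.2 ± 2.01 FPKM in the knockout and 10.2 ± 1.25 FPKM in the controls; it was chosen with its value in view.

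Most of the other linker histones tested moved differently from Hils1 and H1fnt. Of 9 listed, 5 were tested, of which 4 rose and 1 fell, also under each of 3 other scalings, with a median log2 fold change of 0.92. Of all genes tested, 36.2% were called higher on the deposited scale, with a median of -0.41. Under the other scalings 8491 to 9109 of the 16791 genes were called higher. H1f0, the replacement linker histone of differentiated cells, had 28.5, 36.3 and 36.2 FPKM in the knockout and 7.03, 7.45 and 7.27 FPKM in the controls (log2 fold change 2.13 ± 0.116, limma adjusted p of 7.7e-07). H1fx rose to 73.4 ± 9.48 FPKM in the knockout, against 38.6 ± 3.47 FPKM in the controls. Hist1h1c had 5.50 ± 1.34 and 2.34 ± 0.601 FPKM and Hist1h1a 3.39 ± 0.271 and 1.70 ± 0.796 FPKM in the same order, with limma adjusted p of 0.0017 and 0.014. The gene that fell was Hist1h1t, the linker histone of spermatocytes, at 0.101, 0.217 and 0.371 FPKM in the knockout and 3.06, 2.25 and 4.36 FPKM in the controls (log2 fold change -2.33 ± 0.251, limma adjusted p of 4.4e-05). Its values rest on few reads, 2, 4 and 7 in the knockout and 28, 27 and 49 in the controls. Hist1h1a had 13, 24 and 8 reads in the controls. H1foo, Hist1h1b, Hist1h1d and Hist1h1e had means under 1 FPKM over the 6 libraries and were not tested. How RNA was selected was not given, and its part in the low values of the Hist1 genes was not tested.

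**Figure D5:**
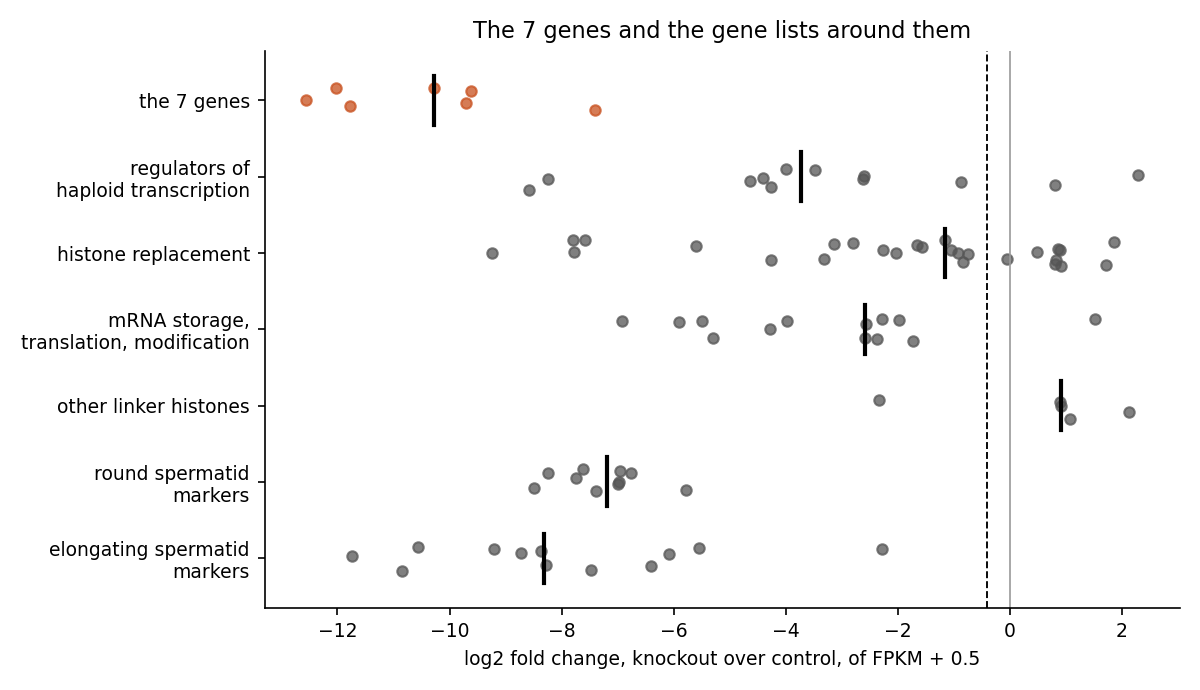
Log2 fold change, knockout over control, of FPKM + 0.5 for each gene tested, with 1 row per list; the thick bar is the list's median, the dashed line the median of all genes tested, and the vertical offset of points carries no value. The 7 genes lie between -12.56 and -7.41, the spermatid marker lists have medians of -7.20 and -8.32, and 4 of the 5 other linker histones lie above 0.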

How the data were processed

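Total RNA of 6 testis libraries was sequenced, 3 knockout and 3 control, grouped and numbered by their titles. The submitters' processing notes name HISAT2 2.0.5 and the mm10 build. The counting tool, gene annotation, strand setting and way of selecting RNA were not given in the sources used here. The authors deposited FPKM per gene. Values times gene length were whole multiples of 1 read within 0.01 read for 100% of nonzero genes, which gave the reads. The deposited divisor was 1.37 to 1.42 times the library total in the knockout and 0.691 to 0.774 times in the controls, so knockout levels are lower than shares of reads would be.

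The 16791 of 54532 genes whose mean reached 1 FPKM were tested for knockout minus control with limma 3.58.1 (R 4.3.3). Values were log2(FPKM + 0.5), with a mean-variance trend and Benjamini-Hochberg adjustment over all of them, at 0.05. Standard errors are moderated. The model was also run on simulated data. That simulation changed fewer genes, and by smaller folds, than these data hold, so it does not test falls of this size. Folds on this scale understate changes of low genes. Read intervals are exact at 95%; the floor is 3 reads. Other steps used Python 3.11.15, pandas 2.3.3, scipy 1.17.1 and matplotlib 3.10.9. All 7 members are named, with up to 4 genes of smallest p per list, every other linker histone, neighbours within 200 kb and the 5 most alike genes. The members and lists were chosen with earlier results of these data known. Alternatives were other pseudocounts, filters, scalings, no trend, a replicate block, limma voom and leaving out each library. Of the 7 members, 7 matched the RefSeq upstream windows and had the same coordinates in GENCODE M21.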

Additional observations from a re-analysis of the deposited data

How the results depend on the processing

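Under each of 16 other settings every one of the 7 genes was lower in the knockout and called by limma or limma voom, in 112 of 112 gene fits. These fits reuse the same libraries and are not independent. Of all genes tested, 50.4% were called lower as deposited, and 36.2% to 38.9% with FPKM or reads rescaled or under quantile normalization. Their log2 fold changes ranged from -13.74 to -11.90 for Prm1, -15.01 to -11.08 for Prm2, -10.51 to -6.07 for Prm3, -11.26 to -8.83 for Tnp1, -12.61 to -11.05 for Tnp2, -12.12 to -8.08 for Hils1 and -13.55 to -8.09 for H1fnt; for genes with few or no knockout reads the size depends on the pseudocount and the scaling. The median of all genes tested moved by 1.12 with FPKM rescaled to sum to 1000000, 0.94 under quantile normalization and 0.83 with reads rescaled to 1000000, and 4, 6 and 6 of the members were then among the 30 lowest genes. With a filter at 5 FPKM, which tests fewer genes, 3227 genes were called higher and 5320 lower, against 6075 and 8462 at 1 FPKM, and of the other linker histones 2 were called higher and 0 lower, since Hist1h1t, Hist1h1a and Hist1h1c were not in that fit. As a share of summed FPKM, in place of reads, the set took 0.00117% in the knockout and 3.24% in the controls. Same-numbered libraries did not deviate together (r of -0.122, -0.053 and -0.040). This gave no sign of pairing but cannot exclude it, since the labels do not say how libraries were numbered. With the replicate block 7 members, and 5930 higher and 8364 lower genes in all, were called. Read ratios without knockout replicate 2, or by library totals, were alternatives chosen after seeing the data. Depth limits the knockout levels: a count of 3 reads is 0.106 to 0.362 FPKM for these genes.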

Other observations

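Beside the members that lie alone, neighbouring genes were mixed. Within 200 kb of any member, 15 protein-coding genes were tested, of which 7 rose and 8 fell. Of all genes tested, 36.2% were called higher and 50.4% lower. Around Hils1 on chromosome 11, 6 protein-coding genes within 200 kb were tested, of which 3 rose and 3 fell. Pdk2, a kinase that inhibits pyruvate dehydrogenase, had 2.53 ± 0.453 FPKM in the knockout and 84.3 ± 12.0 FPKM in the controls (SD, n = 3 each), while Col1a1, a fibrillar collagen, had 6.47 ± 0.646 and 1.96 ± 0.596 FPKM in the same order. The log2 fold change of Ppp1r9b, which fell as Pdk2 and Sgca did, was -0.34 but turned to 0.82 after rescaling FPKM to a sum of 1000000. Around H1fnt on chromosome 15, 4 genes were tested and all 4 were lower, among them Pfkm, a phosphofructokinase, at 5.56 ± 0.703 FPKM in the knockout and 69.2 ± 11.2 FPKM in the controls; Senp1 among these lost its call with FPKM rescaled to sum to 1000000. The only protein-coding gene tested near Tnp1 was Igfbp2, an IGF-binding protein, which had 40.5 ± 1.92 FPKM in the knockout and 6.81 ± 2.30 FPKM in the controls (limma adjusted p of 1.1e-05).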
